A study of Thermothelomyces thermophilus with 18 samples.

Results

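A set of 68 of the 9109 genes of Myceliophthora thermophila in the count table had higher transcript levels without the transcription factor gene Mttrc-1 at both sampling times on Avicel, a microcrystalline cellulose. Read counts of the 18 libraries were divided by their median-of-ratios size factors, which gives the normalised read count used throughout, and averaged within each group. A gene entered the set when its highest group mean reached 100 and when its mean in the deletion strain, with 1 added to both means, was more than 2 times that of the wild type at 4 h and again at 6 h. Mycth_2118002 and Mycth_2059428 were to be left out, and neither met the rule, so their removal changed nothing. The genes were thus chosen by their values in the Avicel libraries, and all differences between the strains on Avicel are given as a description and without a test. All 68 genes passed the filter on low counts and had a locus tag in the reference annotation.

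The wild type MtWT was the strain ATCC 42464 of this thermophilic, cellulose-degrading fungus. ΔMttrc-1, labelled ΔMycth_90344, lacked the gene of the Cys2His2 zinc finger protein MtTRC-1 after a deletion with CRISPR-Cas9, and whether 1 clone or several gave the RNA is not given in the sources used here. After 16 h of growth on 2% glucose in Vogel's salts at 45 °C and a wash, both strains were given either 2% Avicel, with harvests at 4 h and 6 h, or 2% starch, with a harvest at 4 h. Every combination of strain and condition had 3 libraries of mycelium, in 6 groups, with 17250057 to 24387079 counts per library, and expression of the deleted gene was not analysed here.

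In filamentous fungi, cellulose is cut outside the cell by secreted enzymes, and mycelium moved from glucose to cellulose remodels transcription of enzymes, transporters and the secretory machinery. Starch is also a polymer of glucose, but it is opened by amylases and releases sugar more readily. Cys2His2 zinc finger proteins are DNA-binding regulators, and their loss can raise as well as lower transcripts, directly or through other genes.

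On Avicel, the 68 genes spanned a wide range of differences between the strains. At 4 h the ratio of ΔMttrc-1 to MtWT had a median of 2.86, quartiles of 2.25 and 4.14 and a maximum of 41.4. At 6 h the median was 3.05, with quartiles of 2.37 and 3.82 and a maximum of 14.8. The ratio was larger at 4 h in 31 genes and at 6 h in 37, so neither time dominated. It was over 4 at 4 h in 19 genes, at 6 h in 15, and at both times in the 6 genes Mycth_55576, Mycth_2312740, Mycth_2301730, Mycth_2308101, Mycth_2305976 and Mycth_2313641. In all 68 genes, the 3 ΔMttrc-1 libraries lay above the 3 MtWT libraries at 4 h, where 30.4% of all genes tested did so, and at 6 h, where 39.3% did. The model fit across all genes called 65 of them higher at 4 h, against 5.83% of all genes tested, and all 68 at 6 h, against 8.55%, which follows from the rule. Scaling by library totals instead would put the median log2 ratio of all genes tested at 0.34 at 6 h, and at 0.00 at 4 h and -0.02 on starch, so the 6 h ratios are relative to a scaling that removes such a shift.

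The most abundant gene of the set was Mycth_2301985, for which no description was at hand. At 4 h on Avicel its normalised read counts were 7484, 7202 and 7765 in the MtWT libraries and 113381, 103206 and 107586 in the ΔMttrc-1 libraries, a ratio of 14.4. At 6 h they were 17430.3, 16849 and 16539.6 in MtWT and 48229, 48261 and 47299 in ΔMttrc-1, a ratio of 2.83. The gap narrowed between the times because the MtWT level was higher and the ΔMttrc-1 level lower at 6 h than at 4 h. On starch the values were 15615, 15567 and 17074 in MtWT and 13304, 13222 and 13328 in ΔMttrc-1. There the ΔMttrc-1 libraries lay below the MtWT libraries, without overlap, which held for 33.3% of all genes tested. The log2 fold change of Mycth_2301985 on starch was -0.29, beside -0.28 and -0.24 in the control genes actin and tef-1. Mycth_2301985 alone took 0.401% to 0.448% of all counts in the ΔMttrc-1 libraries at 4 h on Avicel, against 0.0282% to 0.0292% in MtWT. The whole set took 0.294% to 0.298% of the counts in MtWT and 1.16% to 1.22% in ΔMttrc-1 at 4 h, and 0.347% to 0.359% and 1.31% at 6 h. On starch the order of the strains was the opposite, with 0.747% to 0.754% in MtWT and 0.587% to 0.593% in ΔMttrc-1.

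Levels between genes were compared in RPKM, the read count scaled to gene length and library size, as the mean of both ΔMttrc-1 Avicel groups. Mycth_2301985 stood at 2611 RPKM, followed by Mycth_107178 at 1283, Mycth_2313641 at 699.6, Mycth_2314976 at 661 and Mycth_55576 at 619 RPKM. The next were Mycth_2301846 at 504, Mycth_2308426 at 266, Mycth_16301 at 157, Mycth_2300786 at 124 and Mycth_2308054 at 90.9 RPKM. Mycth_107178 is described by the study as a mixed-linked glucanase, a type of enzyme that cuts beta-glucans with more than 1 kind of linkage, such as those of cell walls. Its normalised read counts at 4 h on Avicel were 36791, 35449 and 38596 in MtWT and 72457, 76344 and 80737 in ΔMttrc-1, and at 6 h 25744, 24692 and 24921 in MtWT and 52401, 52508 and 52315 in ΔMttrc-1. With ratios of 2.07 and 2.09, it was the member with the highest read counts in MtWT and stood near the threshold of the rule at both times. Mycth_2314976 had 5399, 5330 and 6489.9 in MtWT and 17883, 18456 and 19939.8 in ΔMttrc-1 at 4 h, a ratio of 3.27 that was 2.12 at 6 h. Mycth_2301846 went the other way, from a ratio of 2.01 at 4 h to 3.51 at 6 h. Its MtWT libraries at 4 h spread from 4499 in replicate 3 to 7434 in replicate 1.

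**Figure D1:**
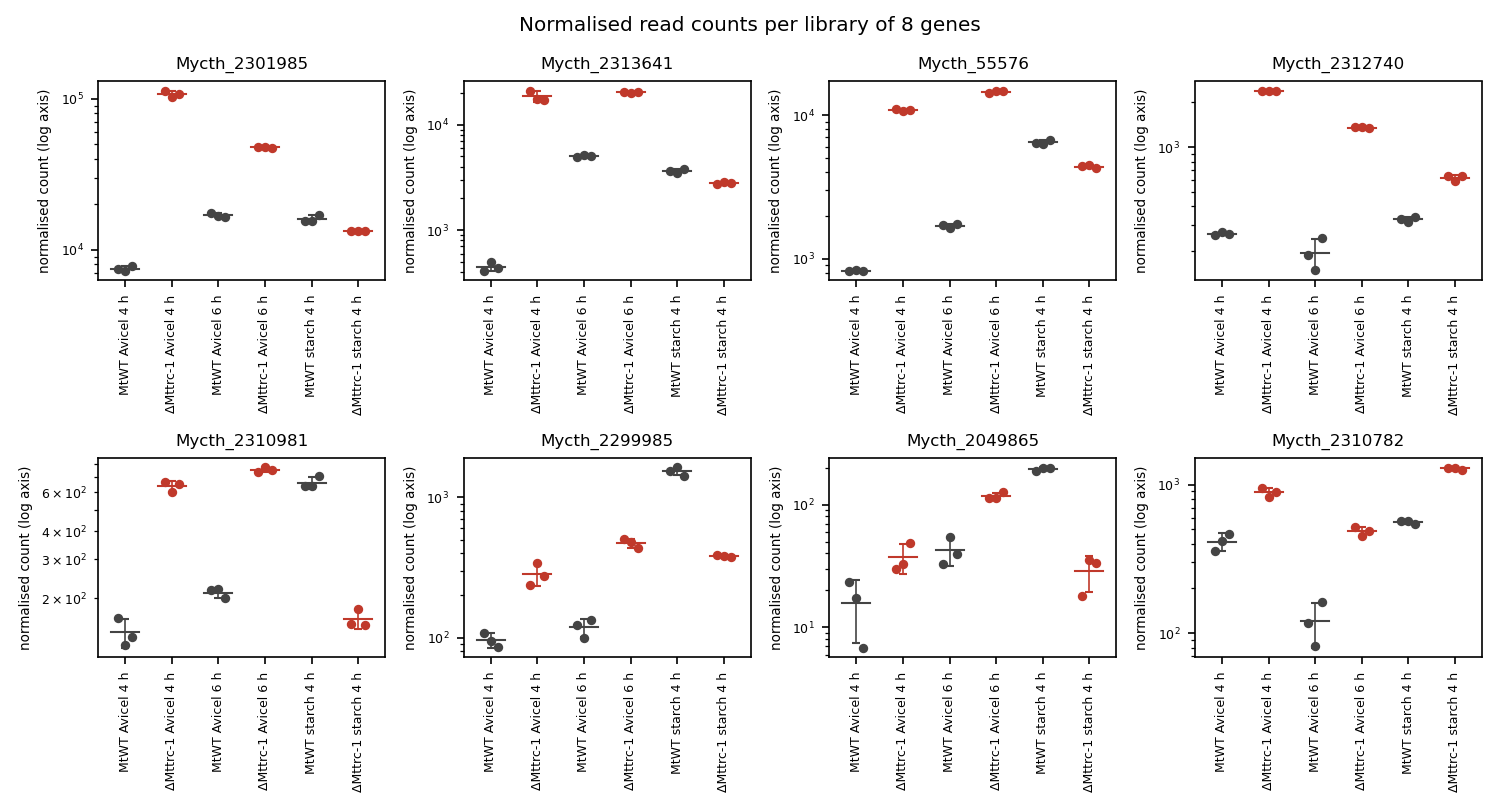
Normalised read counts per library (log axis) of 8 genes of the set in the 6 groups. Points are libraries, lines are group means and bars 1 SD (n = 3), with MtWT in grey and ΔMttrc-1 in red. In Mycth_2301985, Mycth_2313641, Mycth_55576 and Mycth_2312740 both ΔMttrc-1 Avicel groups stood above every other group. In Mycth_2310981, Mycth_2299985 and Mycth_2049865 the MtWT starch libraries stood far above the ΔMttrc-1 starch libraries.

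The largest single ratio belonged to Mycth_2313641, which had no description at hand. At 4 h its normalised read counts were 413, 498 and 439.9 in MtWT and 21093, 17723 and 17223 in ΔMttrc-1, a ratio of 41.4. At 6 h the MtWT libraries had reached 4901, 5214 and 5034, and ΔMttrc-1 stayed at 20273, 20107 and 20329, a ratio of 4.01. The narrowing therefore lay on the MtWT side, where the mean was 11.2 times higher at 6 h than at 4 h, while in ΔMttrc-1 it was 1.08 times that at 4 h. Mycth_55576 had the largest ratio when each gene was ranked by the smaller of its ratios at 4 h and 6 h. It stood at 820.3, 839 and 827 in MtWT and 11106, 10611 and 10781 in ΔMttrc-1 at 4 h, a ratio of 13.1. At 6 h it stood at 1719, 1632 and 1739 in MtWT and 14267, 14727 and 14672 in ΔMttrc-1, a ratio of 8.58. Here the levels of both strains were higher at the later time and the distance between them remained wide. Mycth_2312740 showed 257, 270.3 and 260.3 in MtWT and 2399, 2375 and 2387 in ΔMttrc-1 at 4 h, and 189, 149 and 244 in MtWT and 1355, 1355 and 1346 in ΔMttrc-1 at 6 h, with ratios of 9.06 and 6.94. Its MtWT libraries at 6 h varied more than the ΔMttrc-1 libraries, but no library of either strain came near those of the other.

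In other genes the ratio differed between the times, or the level did. Mycth_2306087, singled out after its values were seen because it had the highest ratio at 6 h, had an MtWT mean of 709 ± 188 at 4 h and 185 ± 41.4 at 6 h (SD, n = 3). ΔMttrc-1 held 2403 ± 129.9 and 2747 ± 117, so the ratio went from 3.39 to 14.8 because the MtWT mean was lower at the later time. In Mycth_2301730 both strains were much higher at 6 h. MtWT had 33.9, 31 and 43.2 at 4 h and 291, 352 and 312 at 6 h, and ΔMttrc-1 had 157, 175 and 243 and 2858, 2863 and 2758. Its ratio was 5.21 at the early and 8.85 at the late time. Mycth_2305976 kept nearly the same values at both times, with means of 129.5 ± 12.4 and 115 ± 4.42 in MtWT and 539 ± 29.8 and 497 ± 4.89 in ΔMttrc-1. Mycth_2313731 and Mycth_61755 had ratios over 3 at both times, 3.74 and 4.44 for the former and 5.32 and 3.60 for the latter. Mycth_2308101 rested on few reads in MtWT, with 29 counts in the 3 libraries at 4 h, of which replicate 3 gave the highest normalised read count, 25 against 5.85 and 2.48. Across the set, the level at 6 h was over 2 times that at 4 h in 11 genes in MtWT and in 4 in ΔMttrc-1, and under 0.5 times in 6 genes in each strain. Of all tested genes whose highest group mean reached 100, 5.95% in MtWT and 7.03% in ΔMttrc-1 were over 2 times, and 5.94% and 10.6% under 0.5 times. Most members, 51 in MtWT and 58 in ΔMttrc-1, stayed within 2-fold between the times. Of all genes at this level, 88.1% in MtWT and 82.4% in ΔMttrc-1 did so. The rule used these same Avicel values.

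Near the limits of the rule, Mycth_2294362 entered with ratios of 3.49 at 4 h and 2.001 at 6 h, Mycth_2305395 with 2.002 and 3.74, and Mycth_2304875 with 2.09 and 2.01. Just outside stood Mycth_2139328 with 2.22 and 1.998, Mycth_2305743 with 3.67 and 1.986, and Mycth_2309929 with 1.982 and 5.31. By level, Mycth_2305381 with a highest group mean of 104.8 and Mycth_2057317 with 113 lay just inside, and Mycth_95166 with 94.6 and Mycth_47841 with 94.4 just outside. In Mycth_2305395 the MtWT libraries at 4 h held 605, 691 and 996, with replicate 3 the highest. That library, MtWT Avicel 4 h replicate 3, differed most from its own group across all genes, and without it the rule gave 88 genes, among them 64 of the 68. Replicate 2 and replicate 3 of MtWT are told apart by the titles only, because another label gives both the same name in each condition.

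Starch libraries had no part in the ratios of the strains by which the set was chosen, so the effect of the deletion on starch could be tested, with each level relative to the other transcripts of its library and RNA per cell not measured. They did count for the minimum level, which Mycth_2312845 alone reached only on starch, with means of 116 in MtWT and 101 in ΔMttrc-1, and with the level taken from the Avicel groups, an alternative added after the data were seen, 67 genes with 9 falls, 1 rise and a median of -0.47 were left. On this carbon source the genes lay mostly on the other side, with 54 of the 68 log2 fold changes of ΔMttrc-1 against MtWT below 0. Among all 8573 genes tested, 4357 lay below 0. A fall means an edgeR adjusted p under 0.05 with a log2 fold change under -1. It was called in 9 of the 68 genes (13.2%), against 3.86% of all genes tested and 3.35% of those whose highest group mean reached 100. A rise was called in 1 gene (1.47%), against 4.12% of all genes tested and 3.74% at that level. Without the fold threshold, 43 genes (63.2%) were lower and 8 (11.8%) higher at this adjusted p, where the shares over all genes tested were 29.0% and 27.7%. The median log2 fold change was -0.47, with quartiles of -0.82 and -0.12 and a range of -2.79 to 1.19, and over all genes tested the median was -0.01. With the set formed without MtWT Avicel 4 h replicate 3 the median was -0.28, and with the rule on library totals -0.30. In 43 genes every ΔMttrc-1 library on starch lay below every MtWT library, and in 9 every one lay above, beside 33.3% and 34.1% of all genes tested. The control genes actin (Mycth_2314852) and tef-1 (Mycth_2298136), the latter for a translation elongation factor, had log2 fold changes of -0.28 and -0.24 on starch, -0.24 and -0.12 at 4 h on Avicel and -0.16 and 0.13 at 6 h.

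**Figure D2:**
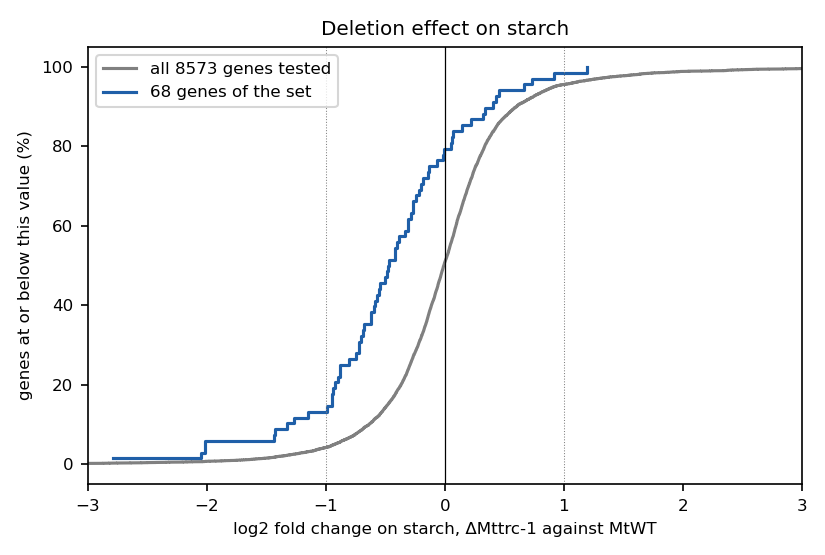
Cumulative share of genes (%) by their edgeR log2 fold change of ΔMttrc-1 against MtWT on starch, for the 68 genes of the set (blue) and all 8573 genes tested (grey). Dotted lines mark log2 fold changes of -1 and 1. The blue curve lies to the left, with a median of -0.47 against -0.01.

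The gene that fell most was Mycth_2049865, described by the study as a ThiJ/PfpI protein, a family that includes stress-related hydrolases and chaperones in other organisms. On starch its normalised read counts were 189, 200 and 199 in MtWT and 18, 35.1 and 33.2 in ΔMttrc-1, and the log2 fold change was -2.79 ± 0.232 (SE, edgeR adjusted p 1.32e-10). On Avicel it stood at 23.4, 17.4 and 6.82 in MtWT and 29.9, 33.1 and 49 in ΔMttrc-1 at 4 h, and at 33, 54.3 and 40 in MtWT and 113, 114 and 127 in ΔMttrc-1 at 6 h. It was a weakly expressed gene whose strain order on starch was the reverse of that on Avicel, and all of its values on Avicel lay below those of MtWT on starch. Mycth_2310981 had 638, 642 and 709.7 in MtWT and 153, 180.1 and 152 in ΔMttrc-1 on starch, a log2 fold change of -2.05 ± 0.0955 (edgeR adjusted p 1.49e-15). At 4 h on Avicel its libraries read 164, 124 and 134 in MtWT and 666, 599 and 652 in ΔMttrc-1, and at 6 h 218, 219.5 and 199.8 in MtWT and 744, 779 and 753 in ΔMttrc-1. ΔMttrc-1 on Avicel was thus close to MtWT on starch, and ΔMttrc-1 on starch close to MtWT on Avicel.

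Mycth_2299985 was a gene with a high level on starch in MtWT, 1549.7, 1637 and 1425, against 390.4, 382 and 375 in ΔMttrc-1. Its log2 fold change on starch was -2.02 ± 0.0991, with an edgeR adjusted p of 4.41e-15. On Avicel it had 108, 94.2 and 85.2 in MtWT and 238, 338 and 276 in ΔMttrc-1 at 4 h and 123, 99.6 and 134 in MtWT and 504, 479 and 433 in ΔMttrc-1 at 6 h, all far below MtWT on starch. The gene next to it, Mycth_2057317, is described as having a xylose isomerase-like TIM barrel, a fold shared by sugar isomerases and some endonucleases. On starch it fell from 69.7, 81 and 80.5 in MtWT to 26.1, 36 and 24.4 in ΔMttrc-1, a log2 fold change of -1.43 ± 0.228 (edgeR adjusted p 7.85e-06). In the test on log2(RPKM + 1) the value was -0.90 (limma adjusted p 1.06e-05) and missed the fold threshold only. Its mean RPKM on starch was low beside the 1 added, 2.74 in MtWT and 1.01 in ΔMttrc-1. On Avicel it had 42.1, 26 and 31.8 in MtWT and 98.8, 75.9 and 77 in ΔMttrc-1 at 4 h, and 22.7, 20.4 and 8.74 in MtWT and 104, 114 and 121 in ΔMttrc-1 at 6 h. Both neighbours therefore had the higher level in ΔMttrc-1 on Avicel and in MtWT on starch.

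Mycth_2305172 stood at 993, 884 and 1018 in MtWT and 219.7, 255 and 249 in ΔMttrc-1 on starch, a log2 fold change of -2.02 ± 0.0955, and on Avicel had ratios of 2.81 at 4 h and 3.75 at 6 h. Mycth_2313117 had 367, 419.8 and 429 in MtWT and 137, 162 and 155 in ΔMttrc-1, a log2 fold change of -1.43 ± 0.127, with Avicel ratios of 5.66 and 3.64. The remaining falls were those of Mycth_2141608, Mycth_2311261 and Mycth_2305976, with log2 fold changes of -1.32, -1.27 and -1.15. In all 9 genes that fell, the libraries of the strains did not overlap on starch, which follows largely from the call on these libraries. Among all genes tested, 33.3% had every ΔMttrc-1 library below every MtWT library there. In the 9 genes the MtWT mean on starch was over 2 times the MtWT mean on Avicel at both times. The same held for 38 of the 68 genes. Of all tested genes whose highest group mean reached 100, 7.68% were over 2 times against 4 h alone and 9.73% against 6 h alone. Genes picked by low MtWT values on Avicel and by a fall from MtWT on starch favour both traits. They are in part set by the choice and carry no test.

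The only member that rose on starch by both thresholds was Mycth_2310782, for which no description was at hand. Its normalised read counts there were 566, 565 and 540 in MtWT and 1297, 1302 and 1251 in ΔMttrc-1, a log2 fold change of 1.19 ± 0.108 (edgeR adjusted p 1.87e-09). With 356, 415 and 468 in MtWT and 943, 828 and 894 in ΔMttrc-1 at 4 h on Avicel, and 117, 81.5 and 162 in MtWT and 519, 451 and 487 in ΔMttrc-1 at 6 h, it was higher in ΔMttrc-1 in all 3 conditions. Mycth_2312740 was higher on starch as well, with 329, 316 and 341 in MtWT and 643, 596 and 636 in ΔMttrc-1, a log2 fold change of 0.92 ± 0.0886 (edgeR adjusted p 2.31e-09) that did not reach 1. The next were Mycth_2308101 at 0.73, Mycth_2300786 at 0.66 and Mycth_2294362 at 0.45 (edgeR adjusted p 0.0131, 2.16e-11 and 3.85e-04). In Mycth_2308101 the edgeR adjusted p was 0.0569 without ΔMttrc-1 starch replicate 1 and 0.0699 without MtWT starch replicate 3. Among the most abundant members, the log2 fold change on starch was -0.29 ± 0.0454 in Mycth_2301985, -0.40 ± 0.0616 in Mycth_2313641 and -0.57 ± 0.0422 in Mycth_55576, and 0.06 ± 0.0429 in the glucanase gene Mycth_107178, whose edgeR adjusted p was 0.279. In Mycth_2301846 it was -0.92 ± 0.120, with 11966, 11759 and 13048 in MtWT and 6489.6, 6553 and 6513 in ΔMttrc-1. In each of these abundant genes the difference between the strains on starch was smaller than 2-fold.

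**Figure D3:**
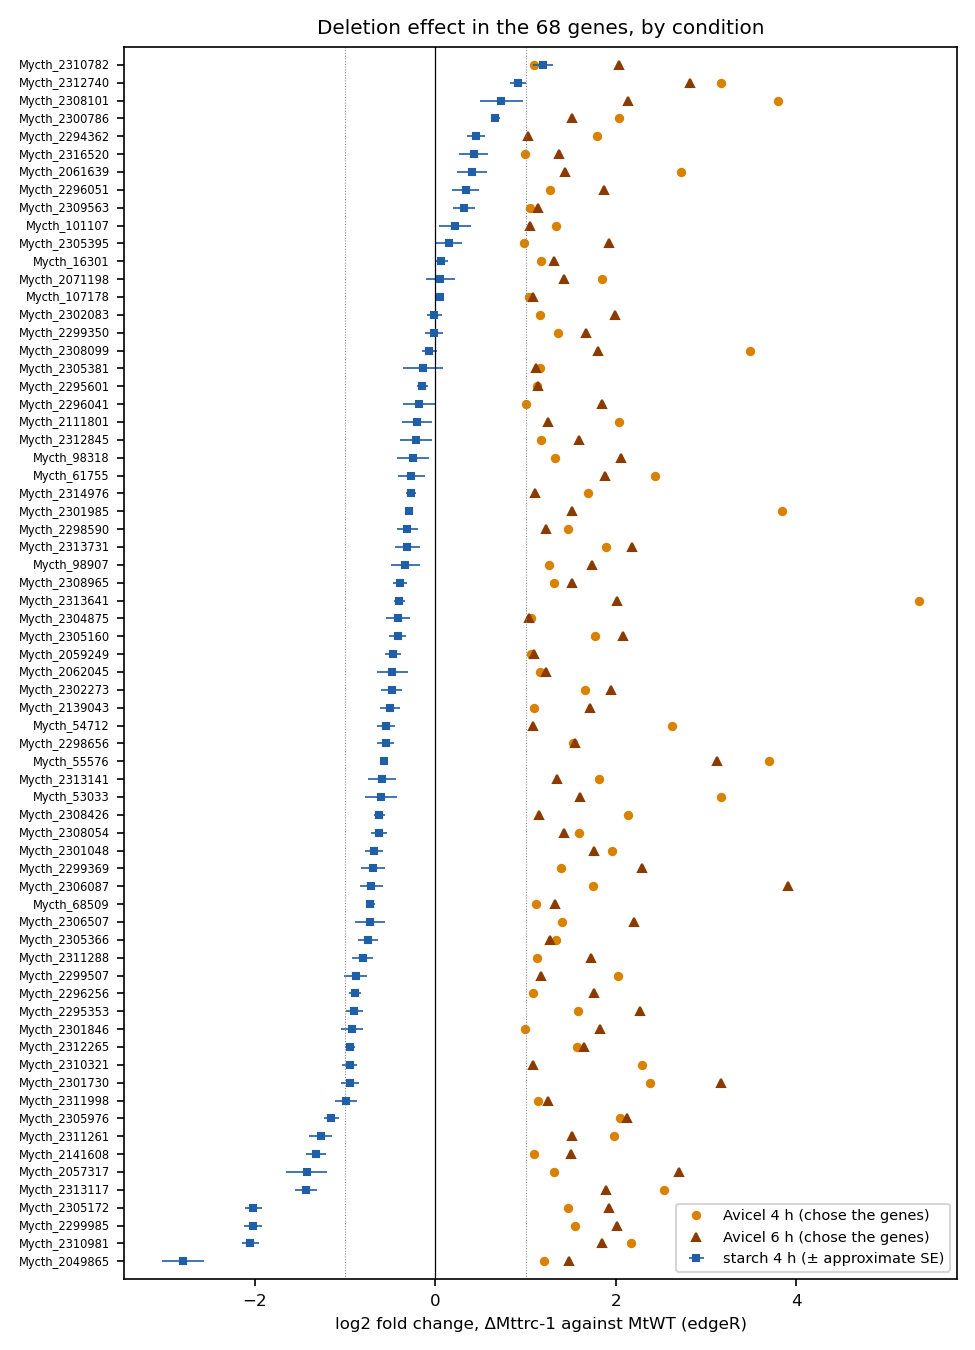
edgeR log2 fold changes of ΔMttrc-1 against MtWT for each of the 68 genes at 4 h on Avicel (circles), 6 h on Avicel (triangles) and 4 h on starch (squares with approximate SE), ordered by the starch value. The Avicel values chose the genes. On starch the values run from -2.79 in Mycth_2049865 to 1.19 in Mycth_2310782. Of the 68 genes 54 lie below 0 there, as do 4357 of all 8573 genes tested.

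Genes that passed the same rule at 1 Avicel time only served for comparison. Of the 359 genes higher at 4 h only, 27 (7.52%) fell and 14 (3.9%) rose on starch, with a median log2 fold change of -0.02. Of the 518 genes higher at 6 h only, 38 (7.34%) fell and 14 (2.7%) rose, with a median of -0.09. The set higher at both times had a larger share of falls, 13.2%, and a lower median, -0.47, than either. Whether the groups of genes differ was not tested. Formed without MtWT Avicel 4 h replicate 3, the set higher at both times had 9.09% falls and a median of -0.28. With the rule on library totals it had 9.38% falls and a median of -0.30. The sets higher at 1 time only were not formed again with these settings.

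Across carbon sources, most members were lower on Avicel than on starch in MtWT. The MtWT mean on starch was above that at 4 h on Avicel in 65 of the 68 genes and over 2 times as high in 47, with a median ratio of 2.64. Among all tested genes whose highest group mean reached 100, the median ratio was 0.998 and 7.68% were over 2. Against 6 h on Avicel, MtWT on starch was higher in 64 genes and over 2 times as high in 49, with a median ratio of 2.97, where 9.73% of all genes at this level did so. The rule favours genes with low MtWT values on Avicel, so these counts are in part set by it and carry no test. The median ratio of ΔMttrc-1 on Avicel to MtWT on starch was 1.09 at 4 h and 1.11 at 6 h, beside 0.999 and 1.00 over all genes at this level, and the rule also used these ΔMttrc-1 values. Within 2-fold of MtWT on starch were 47 genes at 4 h and 56 at 6 h, 15 and 8 were over 2 times as high, and 6 and 4 were under 0.5 times. Over all genes at this level, 83.9% at 4 h and 90% at 6 h were within 2-fold, 9.66% and 4.19% were over 2 times as high, and 6.4% and 5.82% were under 0.5 times. Scaled by library totals, the median ratio at 4 h was 0.756, where that of all genes at this level was 0.691, since the scaling shifts Avicel against starch.

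**Figure D4:**
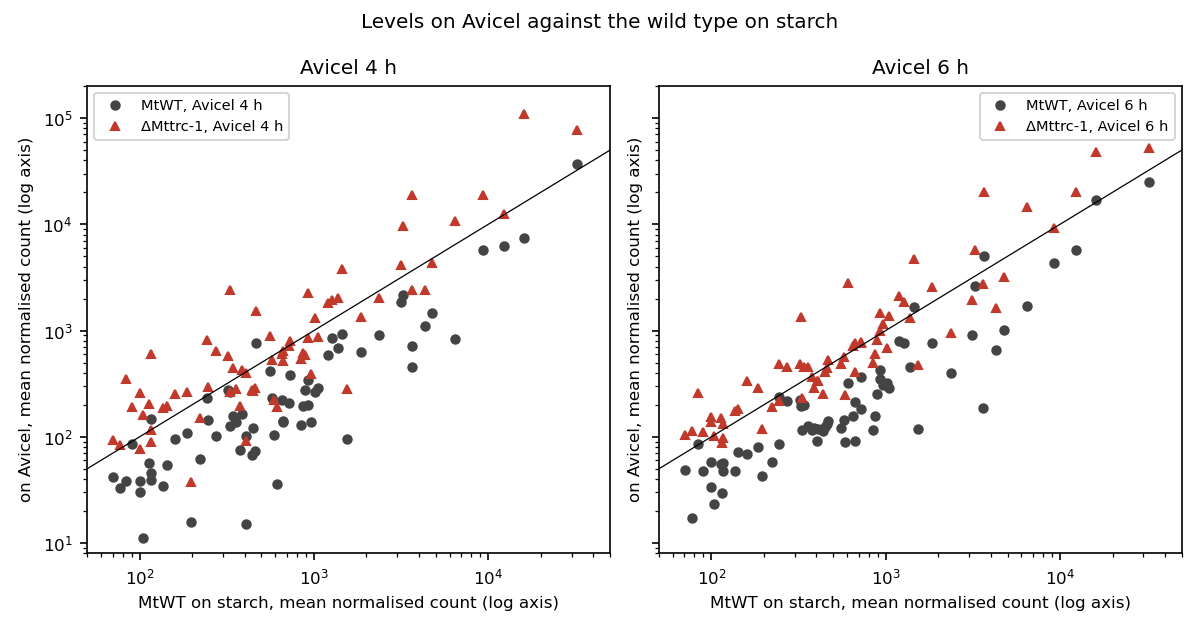
Mean normalised read counts of the 68 genes on Avicel (vertical, log axis) against MtWT on starch (horizontal, log axis), at 4 h (left) and 6 h (right), with the line of equal values. MtWT on Avicel (grey circles) lies below the line in 65 genes at 4 h and 64 at 6 h, and ΔMttrc-1 on Avicel (red triangles) scatters around it.

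The group with the highest mean differed between members. It was ΔMttrc-1 at 4 h on Avicel in 23 genes, ΔMttrc-1 at 6 h in 20, MtWT on starch in 20 and ΔMttrc-1 on starch in 5, and MtWT on Avicel in none, as the rule sets. In Mycth_2313641, Mycth_2312740, Mycth_2301985 and Mycth_53033 both ΔMttrc-1 Avicel means were over 2 times those of every other group. Mycth_53033, named for this pattern after its values were seen, had 364, 329 and 359.6 and 249.9, 253 and 269.8 in ΔMttrc-1 at 4 h and 6 h on Avicel. Its MtWT libraries read 26.9, 45.9 and 43.2 at 4 h, 85.3, 91.6 and 79.9 at 6 h and 95.4, 87.9 and 68.3 on starch, and ΔMttrc-1 on starch read 43.3, 64.8 and 59.5. These 4 genes had by far their highest levels where ΔMttrc-1 grew on Avicel, unlike Mycth_2299985, whose level in MtWT on starch was 1537 against 472 in ΔMttrc-1 at 6 h on Avicel. The 5 genes highest in ΔMttrc-1 on starch were Mycth_101107, Mycth_2302083, Mycth_2308101, Mycth_2310782 and Mycth_2316520.

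Descriptions by the study were at hand for 10 members, of which 4 (Mycth_2061639, Mycth_2071198, Mycth_2111801 and Mycth_16301) were hypothetical proteins, and for none of the other 58. Only a shortened copy of the study's descriptions was available here, for 1666 of the 9109 genes. A member without one may therefore be described by the study. Besides the glucanase, the ThiJ/PfpI protein and the TIM barrel protein, the descriptions at hand named a pair of membrane transporters and a protein with the RCC1 name, which comes from a nucleotide exchange factor of the GTPase Ran in human cells. Mycth_101107, of the major facilitator superfamily of small-molecule transporters, had 45.6, 39.7 and 51.2 in MtWT and 119, 127 and 102 in ΔMttrc-1 at 4 h on Avicel, and 68.2, 32.8 and 42.5 in MtWT and 92, 99.5 and 103 in ΔMttrc-1 at 6 h. On starch it had 101, 118 and 131 in MtWT and 111, 144 and 157 in ΔMttrc-1, so the strains overlapped there (log2 fold change 0.22 ± 0.176). Mycth_2059249, a permease for cytosine, purines, uracil, thiamine or allantoin, had 389.6, 429 and 325 in MtWT and 737, 810.1 and 867 in ΔMttrc-1 at 4 h, with ratios of 2.11 and 2.11 at the successive times. On starch its values were 744, 662 and 766 in MtWT and 538, 499.8 and 546 in ΔMttrc-1, a difference on the log2 scale of -0.47 ± 0.0876 (edgeR adjusted p 6.35e-05), under the fold threshold. The RCC1 gene Mycth_2062045 was weakly expressed, with 85.4, 73.2 and 95.5 in MtWT and 178, 202 and 199 in ΔMttrc-1 at 4 h on Avicel and a log2 fold change of -0.48 ± 0.175 on starch.

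Lists formed by words in the descriptions, which were at hand for 1666 genes, placed these members among their kind. The lists hold only the part of each kind whose descriptions were at hand. Of 68 tested transporter genes, 11 were called higher and 10 lower in ΔMttrc-1 at 4 h on Avicel, 9 and 10 at 6 h, and 6 and 4 on starch, and Mycth_101107 and Mycth_2059249 were the members among them. Of 47 tested genes of carbohydrate-active enzymes, 6 were higher and 20 lower at 4 h, 6 and 21 at 6 h, and 3 and 9 on starch, so the glucanase gene Mycth_107178 was among the fewer genes of its list that were higher on Avicel. Over all genes tested, 5.83% were called higher and 7.42% lower at 4 h, 8.55% and 12.9% at 6 h, and 4.12% and 3.86% on starch, the shares to hold against every list here. The median log2 fold change of the carbohydrate-active list was -0.73 at 4 h, -0.55 at 6 h and -0.47 on starch. No member was among the 102 tested oxidoreductase genes, 12 genes of redox defence, 44 transcription regulators or 16 genes of DNA replication and repair, but the 58 members without a description could enter no list. Of the oxidoreductase genes, 10 were higher and 23 lower at 4 h on Avicel, 12 and 22 at 6 h, and 8 and 10 on starch. In redox defence, 2 genes were higher and 1 lower at 4 h, 1 was lower at 6 h, and 1 rose and 1 fell on starch. Of the transcription regulators, 4 were lower at 4 h and 8 higher at 6 h, where the list had a median log2 fold change of 0.48, and 3 rose and 1 fell on starch. In DNA replication and repair, 1 gene was higher at 4 h and 4 at 6 h, with a median of 0.54 at 6 h, and on starch edgeR called 0 genes in either direction. In that last list, 3 genes were higher and 6 lower at an unadjusted p under 0.05, and DESeq2 and limma also called 0.

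In the gene order of the reference annotation, 5 members stood directly next to another member, in 3 pairs. Besides Mycth_2299985 and Mycth_2057317, these were the consecutive genes Mycth_54712, Mycth_2308099 and Mycth_2308101, followed after 3 further genes by the member Mycth_2111801. Mycth_54712 had 116, 109 and 81.8 in MtWT and 627, 598 and 686 in ΔMttrc-1 at 4 h on Avicel and 219, 224 and 211 in MtWT and 439, 471 and 462 in ΔMttrc-1 at 6 h. Mycth_2308099 had 250.4, 182 and 163 in MtWT and 2292, 2181 and 2293 in ΔMttrc-1 at 4 h, and 434, 439 and 391 in MtWT and 1412, 1384 and 1566 in ΔMttrc-1 at 6 h. Mycth_2308101, the weakest of them, had 5.85, 2.48 and 25 in MtWT and 172, 189 and 120.3 in ΔMttrc-1 at 4 h, and 21.6, 17 and 31.2 in MtWT and 98.1, 88.6 and 116 in ΔMttrc-1 at 6 h. All 3 thus had a wider gap between the strains at 4 h than at 6 h. The next gene, Mycth_2308103, was no member because its ratio at 6 h was under 2, with means of 186 in MtWT and 2422 in ΔMttrc-1 at 4 h and 463 and 766 at 6 h. At 4 h the log2 fold changes along the run were 2.63, 3.49, 3.79 and 3.68, and the genes before it, Mycth_2119794 and Mycth_2066662, described as an oxidoreductase and an O-methyltransferase, had -0.03 and -0.06. On starch the 3 members differed in sign, with log2 fold changes of -0.55 ± 0.102, -0.07 ± 0.0853 and 0.73 ± 0.240. Mycth_2111801 had ratios of 4.15 and 2.34 on Avicel and a log2 fold change of -0.20 ± 0.162 on starch. Mycth_2049865 and Mycth_61755 had 1 gene between them, and Mycth_2305160 and Mycth_2305172 had 3.

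**Figure D5:**
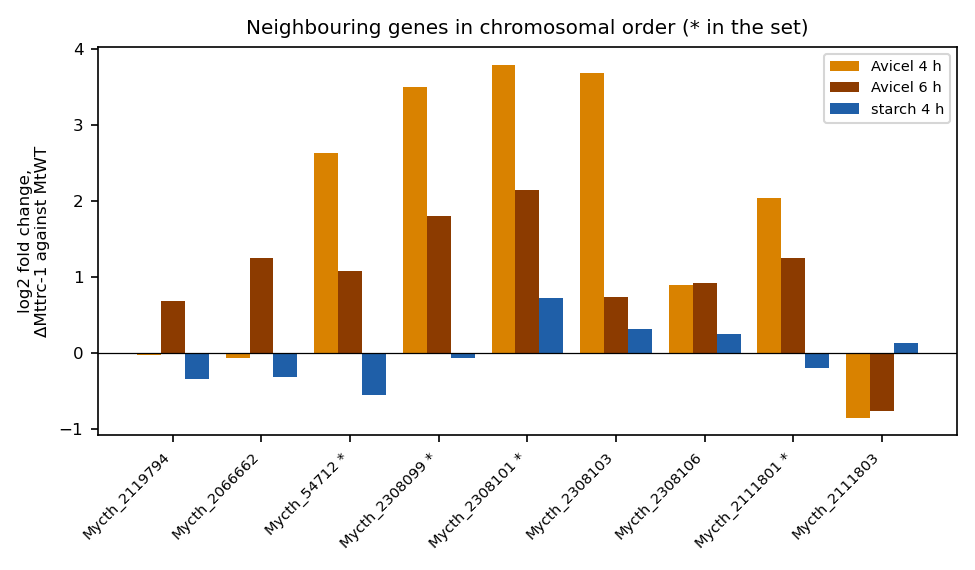
edgeR log2 fold changes of ΔMttrc-1 against MtWT at 4 h and 6 h on Avicel and at 4 h on starch, for neighbouring genes in their order in the reference annotation, with members marked by an asterisk. Genes that did not pass the filter on low counts, Mycth_2119798 and Mycth_2128726, are not drawn. At 4 h, 4 consecutive genes from Mycth_54712 to Mycth_2308103 stand at 2.63 to 3.79.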

How the data were processed

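The 18 libraries were sorted into 6 groups of 3 by their titles. Per the labels, the authors aligned reads with TopHat2 2.0.8b and counted them with HTSeq 0.5.4p2, whereas the study's methods name other versions, and they deposited raw read counts per gene. The RPKM values deposited by the authors are these counts per gene length and library size. Neither the genome build nor the use of strand in counting is stated in the sources used here. Whether the counts keep reads of a gene apart from those of an overlapping or antisense partner is therefore not known. Column names tied all 18 count columns and their RPKM columns to samples.

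The set and the lists were chosen with earlier results of these data known. Counts were fitted with edgeR 4.0.16 in R 4.3.3 (TMM scaling, filterByExpr, glmQLFit and glmQLFTest, robust), with all 6 groups in 1 fit without a replicate term. The filter kept 8573 of 9109 genes. Changes were called at a Benjamini-Hochberg adjusted p under 0.05, over all genes tested, and an absolute log2 fold change over 1. Standard errors are approximate. The test was tried on simulated data with known changes. Alternatives used DESeq2 1.42.0 and limma 3.58.1 on log2(RPKM + 1). The p-values measure the spread between libraries that were independent biological replicates per the study's methods, and no pair of replicates agreed within sampling noise.

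Members are named where they belonged to the 10 with the largest smaller-of-both Avicel ratio, the 10 with the highest RPKM in ΔMttrc-1 on Avicel, the 6 most decreased or increased on starch past both thresholds, the 3 just inside or outside the ratio of 2, genes next to another member, or genes with a description. Other named genes were chosen after their values were seen. Names and gene order came from the RefSeq assembly ASM22609v1, in which 9086 of the 9109 locus tags were found. Neighbours are consecutive protein-coding genes there, and no coordinates are given because the build of the counting was not named.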

Additional observations from a re-analysis of the deposited data

Results flagged for a closer look

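In 43 of the 68 genes, every ΔMttrc-1 library lay above every MtWT library at both Avicel times and below every MtWT library on starch. The direction on Avicel was set by the choice of the genes, and 33.3% of all genes tested had every ΔMttrc-1 library below every MtWT library on starch. The difference between carbon sources was not tested, because the Avicel libraries had chosen the genes. The largest such cases by their edgeR log2 fold change on starch were Mycth_2049865 at -2.79, Mycth_2310981 at -2.05, Mycth_2299985 at -2.02, Mycth_2305172 at -2.02, Mycth_2313117 at -1.43 and Mycth_2057317 at -1.43.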

How the results depend on the processing

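The 9 falls among the 68 genes on starch were the same 9 genes with library totals, DESeq2, no filter, the starch libraries alone and the replicate block. A test against a fold change of 2 kept 6 of them, where 1.78% of all genes tested fell, and limma on RPKM 8, where 2.57% did. The latter lost Mycth_2057317 (-0.90) by the fold threshold. The stricter test lost Mycth_2311261, Mycth_2305976, Mycth_2057317 and the rise of Mycth_2310782, so that 0 genes rose, with 1 at an unadjusted p under 0.05 in that edgeR test. Of all genes, 2.46% rose by the stricter test. DESeq2 and limma each called 1 rise, beside 4.03% and 3.11% of all genes. They tested against no change and applied the fold threshold afterwards. Leaving out a starch library gave 9 to 10 falls and 1 rise, beside 3.81% to 3.87% and 4.01% to 4.27% of all genes tested. Over 36 of the named members and 13 alternatives, 463 of 468 values kept their sign and their call by both thresholds, 5 lost the call and none reversed. By the adjusted p alone, and with the test against a fold change of 2 left out, 8 values crossed 0.05. All came from edgeR runs and belonged to Mycth_2308101, Mycth_2313731, Mycth_2062045 and Mycth_53033. The test left out asks for a change of more than 2-fold, so its p-values were not counted here.

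The members themselves depended on the rule. Over all genes tested, 3.86% fell and 4.12% rose on starch. A ratio over 3 left 16 genes, with 3 falls (18.8%) and 0 rises on starch (2 higher at an unadjusted p under 0.05, and 0 called by DESeq2 or limma). A minimum mean of 500 left 41 genes with 5 falls (12.2%) and 1 rise (2.44%). One of 20 gave 86 genes with 11 falls (12.8%) and 2 rises (2.33%). Scaling by library totals gave 128 genes with 3 rises (2.34%), 12 falls (9.38%) and a median log2 fold change of -0.30. Leaving out an Avicel library gave 62 to 88 genes. The most came without MtWT Avicel 4 h replicate 3, when 8 fell (9.09%) and the median was -0.28. The cause was not tested. Low counts limit the weakly expressed members, such as Mycth_2308101.

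The labels do not say that equal replicate numbers mark shared cultures. Same-numbered starch libraries of the strains had correlations of -0.0282, 0.00256 and 0.0336 in their deviations from the group means. On Avicel these were 0.0798, -0.00768 and 0.0511 at 4 h and 0.0463, 0.0282 and 0.0218 at 6 h. Libraries with different numbers had -0.0439 to 0.0442 on starch, -0.0696 to 0.0199 at 4 h on Avicel and -0.0358 to 0.0075 at 6 h. All were small, and the numbers were not taken as pairs. MtWT replicates 2 and 3 are told apart by title only. With the replicate block, 9 genes fell and 1 rose.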
